A study of Homo sapiens with 15 samples.

Results

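The genes described here are 9 protein-coding genes tied to platinum uptake, export or detoxification: SLC31A1, SLC31A2, ATP7B, ABCC2, SLC22A2, LRRC8A, LRRC8D, GSTP1 and GCLC. They were chosen by name for these roles, with earlier results of these data known. They are 9 of 19819 annotated protein-coding genes on chromosomes 1 to 22 and X. Their gene bodies hold 654 of the 3373681 windows of 1 kb in which reads were counted. The data are 15 Pt-exo-seq libraries, a method in which exonucleases digest sheared genomic DNA until a platinum adduct blocks them, so that read ends mark adducts. The libraries came from the ovarian cancer cell lines PEO1, labelled sensitive to platinum, and PEO4, labelled resistant, with 3 libraries in each of 5 groups: untreated PEO1, PEO1 with 16 µM cisplatin, untreated PEO4, and PEO4 with 16 or 32 µM cisplatin. The study paired 16 µM in PEO1 with 32 µM in PEO4 as doses that give similar total adduct levels. Each group is 1 cell line, so a difference between PEO1 and PEO4 is a difference between these lines. Nothing in the labels says whether replicates were separate cultures, and p-values then measure the spread between these libraries, which may be technical.

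Cisplatin enters cells partly by copper transporters, organic cation carriers and volume-regulated anion channels, and leaves by copper-pumping ATPases and ABC exporters. Inside the cell it reacts with thiols such as glutathione before it can reach DNA, where it crosslinks neighbouring purines, most often a pair of guanines. In ovarian cancer, lower uptake, higher export and more glutathione are each known routes to platinum resistance. Pt-exo-seq reads the DNA of these genes and not their expression. Untreated cells hold no drug, so reads over a gene in untreated libraries give the background of the method, which scales with the number of copies of that DNA, among other properties of the region. Copy number was not measured separately here.

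Copper transporters, an organic cation carrier and volume-regulated anion channels are represented by 5 genes. SLC31A1 encodes CTR1, the high-affinity copper importer, and spans chr9:115983824-116026772 on GRCh37 (plus strand). SLC31A2 encodes its relative CTR2 at chr9:115913256-115926420 (plus strand), 57.4 kb away, so that each of these genes lies in the flanks of the other and the pair do not give independent flank values. SLC22A2 encodes the organic cation transporter OCT2 at chr6:160592093-160698670 (minus strand). LRRC8A, the obligate subunit of the volume-regulated anion channel, lies at chr9:131644412-131680318 (plus strand), and LRRC8D, the subunit that gives the channel its platinum permeability, at chr1:90286573-90402170 (plus strand). Export is represented by ATP7B, a copper-pumping ATPase, at chr13:52504572-52586261 (minus strand), and by ABCC2, the exporter MRP2, at chr10:101542397-101612351 (plus strand). Detoxification is represented by GSTP1, a glutathione S-transferase, at chr11:67351213-67354127 (plus strand), and by GCLC, the catalytic subunit of the first enzyme of glutathione synthesis, at chr6:53362139-53481768 (minus strand).

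The sequence that cisplatin meets at these genes differs in how many guanine pairs it offers. The 150 bases upstream of the annotated start are printed below on GRCh37 for the copper importer, the anion channel subunit whose reads differed most between the lines, and the exporter with the fewest guanine pairs of the 9. They are read 5′ to 3′ on the gene's strand (plus for all 3), with every GG or CC dinucleotide, a GG on one of the strands, in capitals.
SLC31A1 (chr9:115983674-115983823): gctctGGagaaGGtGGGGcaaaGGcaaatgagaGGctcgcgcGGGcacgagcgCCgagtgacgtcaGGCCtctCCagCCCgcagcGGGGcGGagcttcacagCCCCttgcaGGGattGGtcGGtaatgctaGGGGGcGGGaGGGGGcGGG
LRRC8A (chr9:131644262-131644411): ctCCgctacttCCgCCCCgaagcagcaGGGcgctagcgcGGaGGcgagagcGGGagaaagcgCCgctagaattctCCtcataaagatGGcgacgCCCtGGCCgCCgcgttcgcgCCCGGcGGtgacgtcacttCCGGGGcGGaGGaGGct
ABCC2 (chr10:101542247-101542396): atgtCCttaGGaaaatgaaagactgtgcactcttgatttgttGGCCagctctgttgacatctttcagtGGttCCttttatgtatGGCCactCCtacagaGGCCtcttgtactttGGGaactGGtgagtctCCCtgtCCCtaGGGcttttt
Counting overlapping pairs, these stretches hold 38, 30 and 20 GG or CC dinucleotides, against a median of 35 over the same stretch of 19819 genes. Fewer were found in 57.2% of genes than in SLC31A1, in 34.1% than in LRRC8A and in 13.3% than in ABCC2. GSTP1 had the most among the 9, with 48, more than 83.0% of genes. Over whole gene bodies, GG or CC started at 9.91 of every 100 bases in LRRC8D and at 23.9 in GSTP1, and GC content ranged from 40.2% in GCLC to 62.3% in GSTP1, with a median of 45.2% over all genes.

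Libraries held between 27.7 M and 56.6 M counts. Values below are relative read densities, the mean count per window of a gene divided by the mean count per window of the library over chromosomes 1 to 22 and X, so that 1 is the genome mean. Libraries also differed in how their gene sums followed GC content. The slope over GC content, per 10 percentage points, of each gene's log2 ratio to the untreated mean of the line was 0.44 in PEO1 16 µM replicate 1 and -0.38 in PEO4 16 µM replicate 1, and lay between -0.26 and 0.09 in the other 13.

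**Figure D1:**
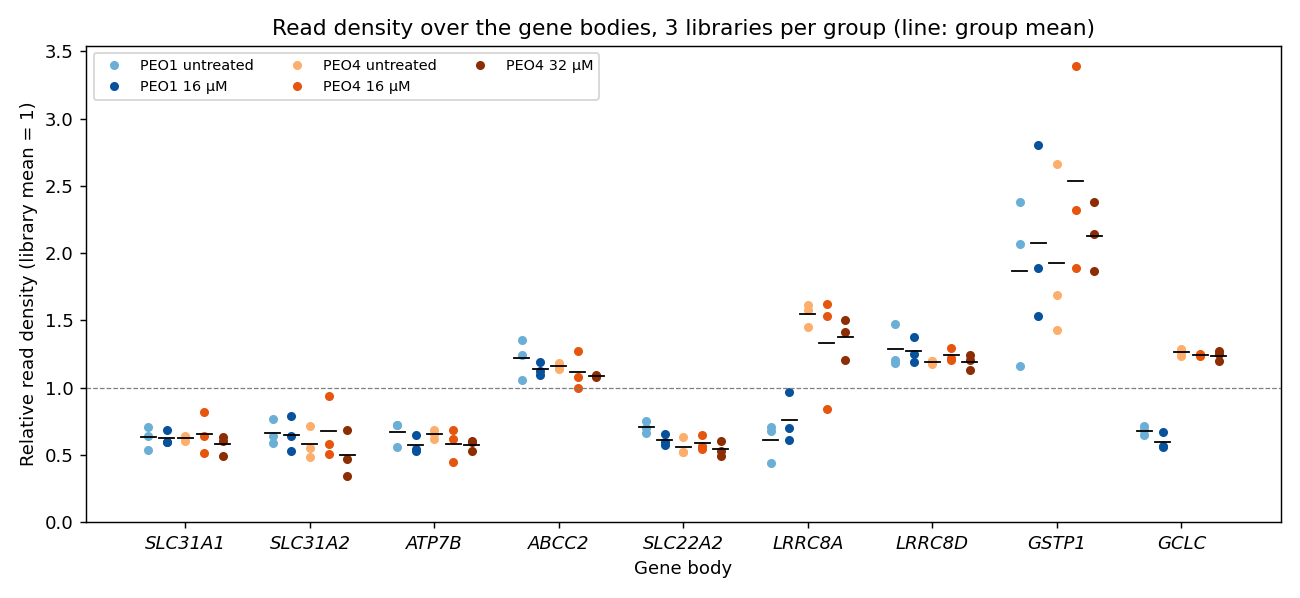
Relative read density (vertical axis, library mean = 1) over each gene body, with 1 point per library, coloured by group, and a line at the mean of 3 libraries. GCLC lies between 0.56 and 0.72 in the 6 PEO1 libraries and between 1.20 and 1.28 in the 9 PEO4 libraries, LRRC8A is higher in PEO4 apart from 1 library at 0.84, and at the other 7 genes the ranges of the lines overlap.

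In untreated PEO1, 3 genes lay above the genome mean and 6 below it. GSTP1 had the highest mean, 1.87 ± 0.63 (SD, n = 3), followed by LRRC8D at 1.29 ± 0.16 and ABCC2 at 1.22 ± 0.15, and these 3 did not differ beyond their spread, since GSTP1 in replicate 1 was 1.16. The other 6 genes lay between 0.61 (LRRC8A) and 0.70 (SLC22A2), with SDs from 0.036 to 0.14, and neighbours in that order did not differ beyond their spread. In untreated PEO4 the order was GSTP1 at 1.93 ± 0.65, LRRC8A at 1.55 ± 0.083, GCLC at 1.26 ± 0.025, LRRC8D at 1.19 ± 0.013 and ABCC2 at 1.16 ± 0.024, and the remaining 4 lay between 0.56 and 0.65. GSTP1 is only 3 windows long, so its level rested on few reads and overlapped that of LRRC8A. LRRC8A and GCLC thus moved from the group of genes below the genome mean in PEO1 to the group above it in PEO4.

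LRRC8A had the largest difference between the untreated lines among the 9 genes. Its density was 0.44, 0.71 and 0.68 in the 3 untreated PEO1 libraries and 1.58, 1.61 and 1.45 in the 3 untreated PEO4 libraries. The groups did not overlap, and every PEO4 library was more than 2 times as high as the highest PEO1 library. The log2 fold change was 1.27 (SE 0.19, edgeR quasi-likelihood test, adjusted p = 1.32e-05), a 2.41-fold difference. It stayed between 1.11 and 1.37 when any 1 of the 15 libraries was left out, and was 0.85 with a GC offset per library, where it still passed the test.

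GCLC was the second gene that was higher in untreated PEO4. Its density was 0.68, 0.72 and 0.64 in untreated PEO1 and 1.28, 1.27 and 1.24 in untreated PEO4. The groups did not overlap and the spread within each was small. The log2 fold change was 0.81 (SE 0.11, adjusted p = 2.12e-06), a 1.75-fold difference, between 0.76 and 0.85 with any 1 library left out. GCLM, which encodes the modifier subunit of the same enzyme, had a log2 difference of 0.00 (SE 0.17, adjusted p = 0.992).

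SLC22A2 was lower in untreated PEO4. Its density was 0.75, 0.70 and 0.66 in untreated PEO1 and 0.52, 0.53 and 0.63 in untreated PEO4. The groups did not overlap, but the lowest PEO1 library lay close to the highest PEO4 library. The log2 fold change was -0.42 (SE 0.14, adjusted p = 0.0302). This call was not stable: without replicate 1 or 2 of untreated PEO1 or replicate 1 or 2 of untreated PEO4 the adjusted p-value lay between 0.0518 and 0.171, over the span of the canonical transcript (42.1 kb of the 106.6 kb annotated) it was 0.208, with scaling by total count 0.0628, and with the replicate number as a block 0.0527.

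The other 6 genes did not pass the test between the untreated lines. Their log2 differences were -0.10 (SE 0.18) for SLC31A1, -0.27 (SE 0.31) for SLC31A2, -0.20 (SE 0.11) for LRRC8D, -0.12 (SE 0.15) for ATP7B, -0.15 (SE 0.11) for ABCC2 and -0.03 (SE 0.36) for GSTP1. The 95% intervals of SLC31A1, LRRC8D, ATP7B and ABCC2 lay within -0.45 to 0.25. Those of the short genes SLC31A2 and GSTP1 were wider and reached -0.88 and -0.73, so only larger differences could have been seen there. In all, 3 of the 9 genes were called, 2 higher and 1 lower, against 20.5% of the 19054 genes tested (2319 higher and 1583 lower). The median log2 difference was -0.12 over the 9 genes and 0.01 over all genes tested.

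**Figure D2:**
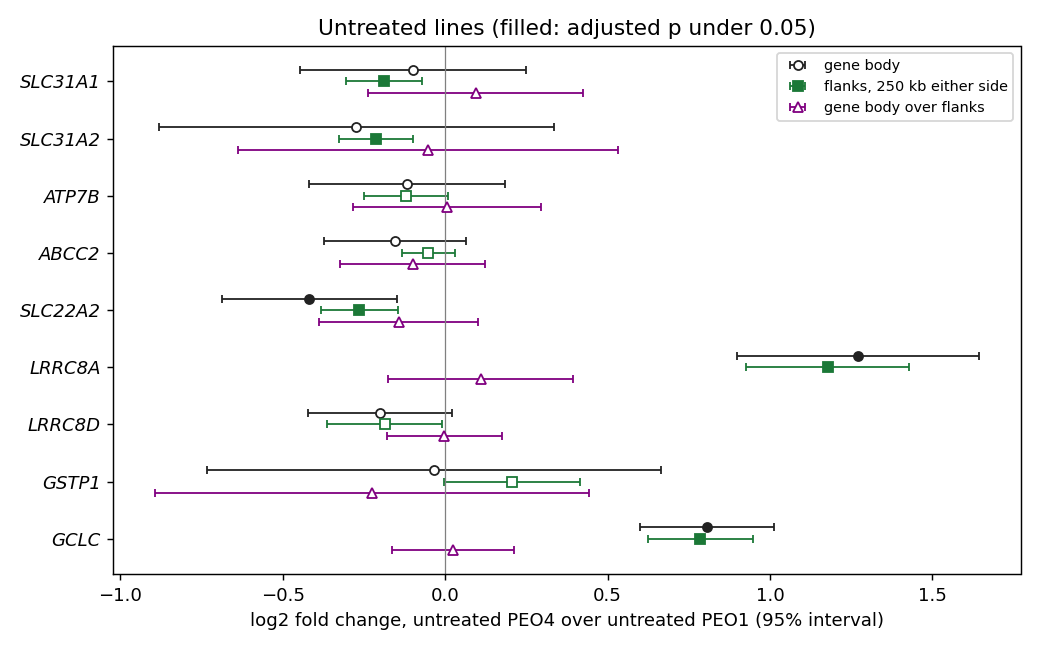
Log2 fold change of untreated PEO4 over untreated PEO1 (horizontal axis) for each gene, with 95% intervals, for the gene body (circles), the 250 kb either side (squares) and the gene body relative to those flanks (triangles), where filled symbols have an adjusted p-value under 0.05. LRRC8A and GCLC stand at 1.27 and 0.81 over the gene and at 1.18 and 0.79 in the flanks, while every triangle lies near 0 and is open.

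The DNA around the genes was then compared in the same way, to ask whether a difference was confined to the gene. Reads within 250 kb on either side, the gene itself left out, were higher in untreated PEO4 around LRRC8A by 1.18 on the log2 scale (SE 0.13, adjusted p = 2.54e-06) and around GCLC by 0.79 (SE 0.083, adjusted p = 1.82e-06). They were lower around SLC22A2 by a log2 difference of -0.26 (SE 0.060, adjusted p = 0.00296), around SLC31A2 by -0.21 (SE 0.058, adjusted p = 0.011) and around SLC31A1 by -0.19 (SE 0.059, adjusted p = 0.0257). Thus the flanks of 5 of the 9 genes were called, against 34.5% of the flanks of 19800 genes. The SLC31A1 and SLC31A2 flanks, which overlap, lost the call with flanks of 100 kb, with scaling by total count, and without replicate 1 of untreated PEO1 or replicate 3 of untreated PEO4, with adjusted p-values between 0.058 and 0.203. The SLC31A1 flanks also lost it with flanks of 1000 kb (0.0552) and without replicate 1 of untreated PEO4 (0.0769).

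Flank densities separated the lines in every library at 3 genes. Around LRRC8A they lay between 0.55 and 0.87 in the 6 PEO1 libraries and between 0.97 and 1.59 in the 9 PEO4 libraries, and around GCLC between 0.60 and 0.66 and between 1.13 and 1.23. Around SLC22A2 they lay between 0.634 and 0.701 in PEO1 and between 0.556 and 0.628 in PEO4. With flanks of 1000 kb the log2 differences were 1.21 at LRRC8A, 0.82 at GCLC and -0.21 at SLC22A2. The share of all genes whose flank densities separate the lines in every library was not counted. With flanks of 250 kb, 34.5% of the flanks of 19800 genes were called between the untreated lines.

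Relative to its own flanks no gene passed the test between the untreated lines. The log2 difference of the gene body over its flanks was 0.11 (SE 0.14) for LRRC8A, 0.02 (SE 0.095) for GCLC and -0.14 (SE 0.13) for SLC22A2, and it lay between -0.23 and 0.11 over the 9 genes. None of the 9 was called, against 0.163% of genes tested (31 of 19054), and none had an unadjusted p-value under 0.05, against 1554 of all genes. The largest 95% interval, for GSTP1, ran from -0.89 to 0.44, and that of GCLC from -0.16 to 0.21.

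**Figure D3:**
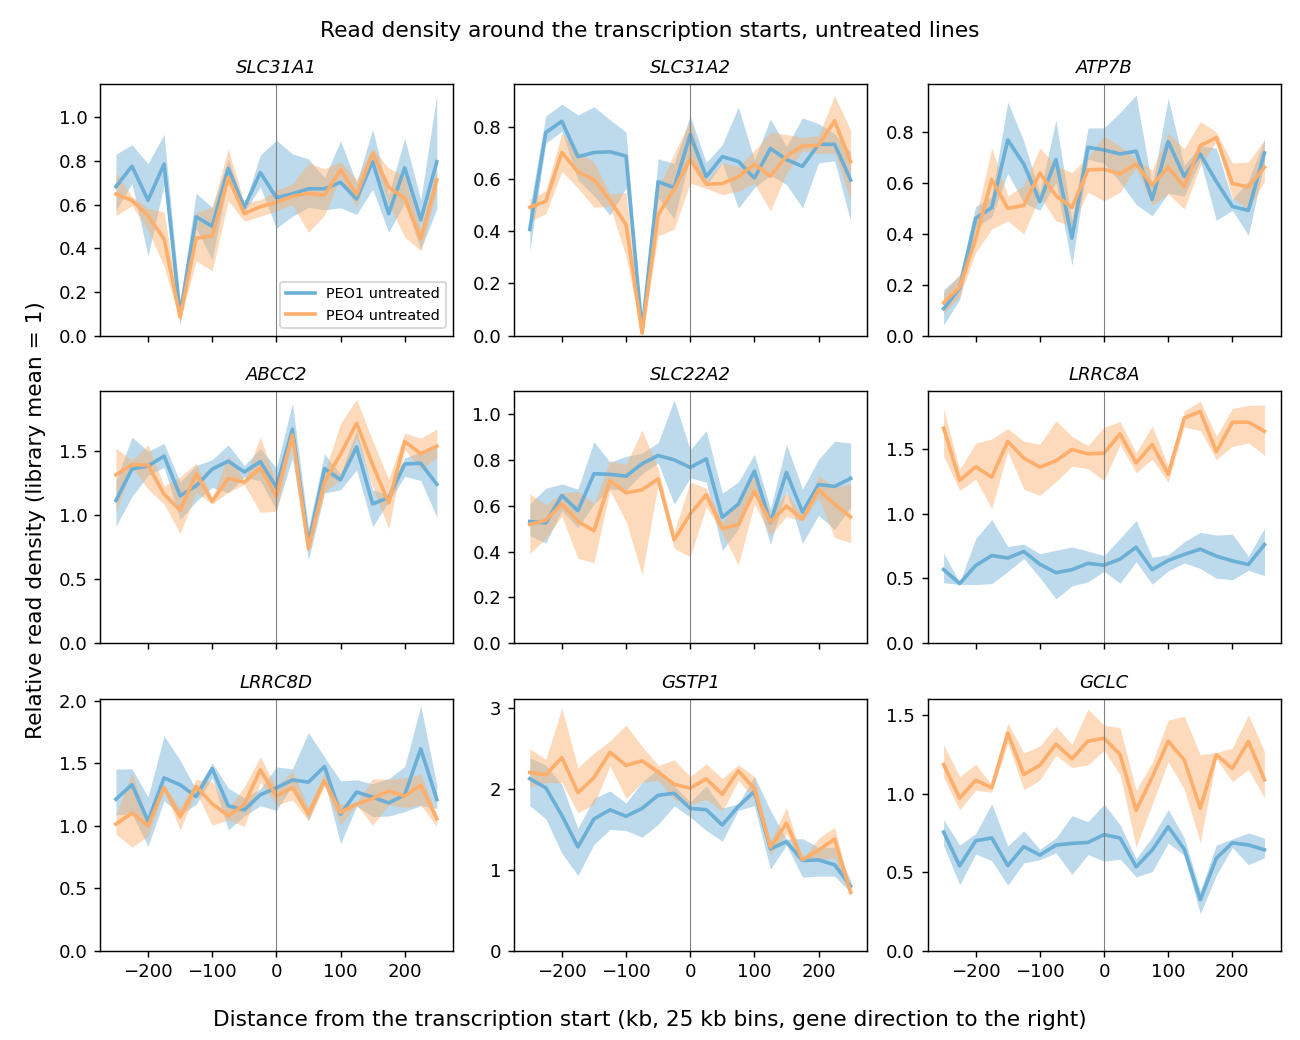
Relative read density (vertical axis, library mean = 1) in bins of 25 kb up to 250 kb from the transcription start of each gene, for untreated PEO1 and untreated PEO4, with the line at the mean and the band from the lowest to the highest of 3 libraries. At LRRC8A and GCLC the PEO4 band lies above the PEO1 band in all 21 bins, and at the other genes the bands overlap in most bins.

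The profiles show the same by distance from the start. At LRRC8A and at GCLC all 3 untreated PEO4 libraries lay above all 3 untreated PEO1 libraries in 21 of 21 bins of 25 kb, and the log2 ratio of the means ranged from 0.91 to 1.55 at LRRC8A and from 0.53 to 1.48 at GCLC. At SLC22A2 all PEO4 libraries lay below in 5 of 21 bins and above in none. At GSTP1 they lay above in 6 bins and below in none, with a flank difference of 0.21 (SE 0.11) that did not pass the test (adjusted p = 0.14). At SLC31A1, SLC31A2, ATP7B, ABCC2 and LRRC8D between 1 and 3 bins had all PEO4 libraries below and between 0 and 2 had all above. How often bins separate in this way over all genes was not counted, so counts of a few bins are not shown to be unusual. LRRC8A and SLC31A1 lie 15.6 Mb apart on chromosome 9, and GCLC and SLC22A2 lie 107 Mb apart on chromosome 6. Both pairs had flank differences of opposite sign between the untreated lines. The calls at the overlapping SLC31A1 and SLC31A2 flanks were not stable, as given above.

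Genes of the same pathways, 42 in all, were read in the same fit. Over all 19054 genes tested in it, 20.5% were called between the untreated lines. Among 16 genes of glutathione and thiol metabolism, 3 were higher and 1 was lower in untreated PEO4. NFE2L2, which encodes the transcription factor NRF2 that drives glutathione genes, was higher by 0.72 on the log2 scale (SE 0.10, adjusted p = 8.23e-06), and the transferase gene GSTA4 by 0.94 (SE 0.27, adjusted p = 0.0112). GSTA1, which the naming rule did not pick and which is named after its value was seen, was higher by 0.90 (SE 0.31, adjusted p = 0.0447). GSTA4 and GSTA1 lie 502 and 693 kb from GCLC. GSTK1, a transferase of mitochondria and peroxisomes, was lower with a log2 difference of -0.75 (SE 0.17, adjusted p = 0.00165). Among 7 ABC exporters 2 were lower, ABCG2, the breast cancer resistance protein, with -0.94 (SE 0.12, adjusted p = 1.31e-06) and ABCC5 with -0.63 (SE 0.089, adjusted p = 6.13e-06), and none was higher. None of 10 copper-handling genes that could be tested (of 12), 4 other cation carriers or 3 other anion channel subunits passed the test.

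Some further genes of these lists did not pass the test. SLC22A3, which lies 70.7 kb from SLC22A2, had a log2 difference of -0.30 (SE 0.12) with an adjusted p-value of 0.0824. LRRC8C and LRRC8B, which lie 51.1 and 223 kb from LRRC8D, had -0.20 (SE 0.10) and -0.34 (SE 0.15) with adjusted p-values of 0.172 and 0.122. SLC7A11, which imports cystine for glutathione synthesis, had -0.43 (SE 0.18, adjusted p = 0.105). ATP7A, the relative of ATP7B, had -0.28 (SE 0.11, adjusted p = 0.0918).

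The treated libraries, none of which entered the comparison above as a compared group, gave the difference between the lines again. GCLC density was 0.565, 0.669 and 0.559 in PEO1 given 16 µM, 1.25, 1.23 and 1.24 in PEO4 given 16 µM, and 1.25, 1.20 and 1.27 in PEO4 given 32 µM. No PEO4 library overlapped a PEO1 library. The log2 difference was 1.07 (SE 0.11, adjusted p = 5.86e-08) at 16 against 16 µM and 1.08 (SE 0.11, adjusted p = 5.67e-08) at 32 against 16 µM.

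LRRC8A was also higher in treated PEO4, but not in every library. Its density was 0.97, 0.61 and 0.70 in PEO1 given 16 µM, 0.84, 1.62 and 1.53 in PEO4 given 16 µM, and 1.50, 1.21 and 1.41 in PEO4 given 32 µM. The groups at 16 µM overlapped through replicate 1 of each line, and the PEO4 32 µM libraries lay above all PEO1 libraries. The flanks in those replicate 1 libraries were 0.87 and 0.97, and they are the libraries with the GC slopes of 0.44 and -0.38, while LRRC8A has a GC content of 53.8%. The GC offset given above was applied to the difference between the untreated lines. The part of GC in the differences between the treated lines was not tested. The log2 difference was 0.83 (SE 0.19, adjusted p = 0.00172) at 16 against 16 µM and 0.90 (SE 0.19, adjusted p = 0.000835) at 32 against 16 µM. Over gene bodies these 2 genes were the only ones of the 9 called between treated lines, where 16.4% and 16.6% of all genes were called, and SLC22A2 had differences of -0.03 (SE 0.14) and -0.13 (SE 0.14). Its flanks differed by -0.12 (SE 0.060, adjusted p = 0.254) and -0.18 (SE 0.061, adjusted p = 0.0369), and those of SLC31A1 and SLC31A2 were not called in either comparison.

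Cisplatin itself changed the relative reads over none of the 9 genes to a degree that passed the test, in either line or at either dose. The same held for all pathway genes that could be tested. Reads were scaled within each library, so a gain in adducts shared by the whole genome could not show here. Only a shift of a gene relative to the rest of the genome could be seen. In PEO1 given 16 µM the log2 responses, treated over untreated, ran from -0.26 (ATP7B) to 0.26 (LRRC8A). GCLC had -0.23 (SE 0.11), with an unadjusted p of 0.0372 and an adjusted p of 0.85 in the edgeR quasi-likelihood test. In PEO4 the responses ran from -0.18 (LRRC8A) to 0.44 (GSTP1) at 16 µM and from -0.14 (SLC31A2) to 0.22 (GSTP1) at 32 µM. Between 32 and 16 µM in PEO4 they ran from -0.40 (SLC31A2) to 0.07 (LRRC8A). The share of all 19054 genes called by edgeR was 0% in each of these 4 comparisons, with 1111, 503, 1228 and 497 genes at an unadjusted p under 0.05 for PEO1 given 16 µM, PEO4 given 16 µM, PEO4 given 32 µM and PEO4 given 32 against 16 µM. DESeq2 called 4, 0, 0 and 0 genes, none of them among the 9.

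**Figure D4:**
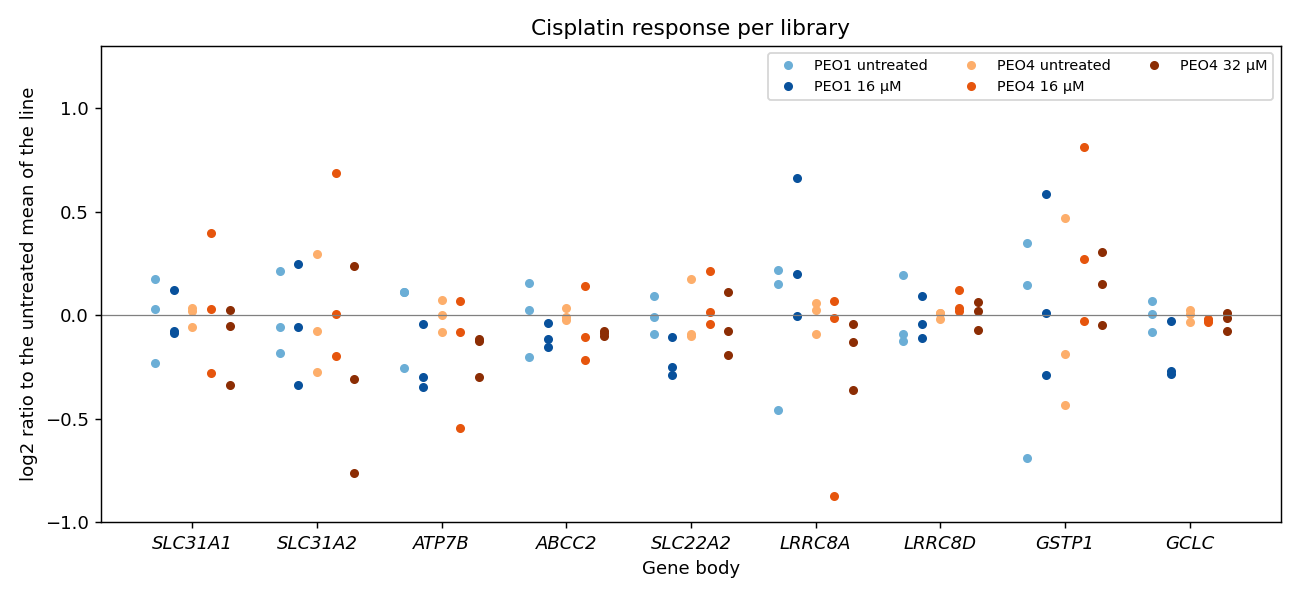
Log2 ratio of each library's density to the untreated mean of its line (vertical axis), for each gene body, coloured by group. Treated points lie among the untreated points for most genes, and the widest spread is at GSTP1, SLC31A2 and LRRC8A.

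Single libraries spread widely at the shorter genes. GSTP1 was covered by 3 windows, and the biological coefficient of variation of its sums was 26.3%, followed by SLC31A2 (15 windows) at 24.2%. It was 9.09% for GCLC, 9.60% for ABCC2 and 9.93% for LRRC8D, against a median of 14.8% over all genes tested. The responses that could have been seen were therefore smallest at GCLC, ABCC2 and LRRC8D, where the 95% interval of the response to 32 µM in PEO4 reached at most 0.30 in size. A few groups did not overlap although no test was passed: all 3 PEO1 16 µM libraries lay below untreated PEO1 at SLC22A2 (0.58, 0.65 and 0.59 against 0.66 or more), and all 3 PEO4 32 µM libraries lay below untreated PEO4 at ATP7B (0.60, 0.60 and 0.53) and at ABCC2 (1.09, 1.08 and 1.10). At LRRC8D all 3 PEO4 16 µM libraries lay above untreated PEO4, by a ratio of means of 1.04. None of the 4 reached an unadjusted p of 0.05, and 0% of all genes were called in these comparisons. How often such groups fail to overlap over all genes was not counted, so these 4 are not shown to be unusual.

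**Figure D5:**
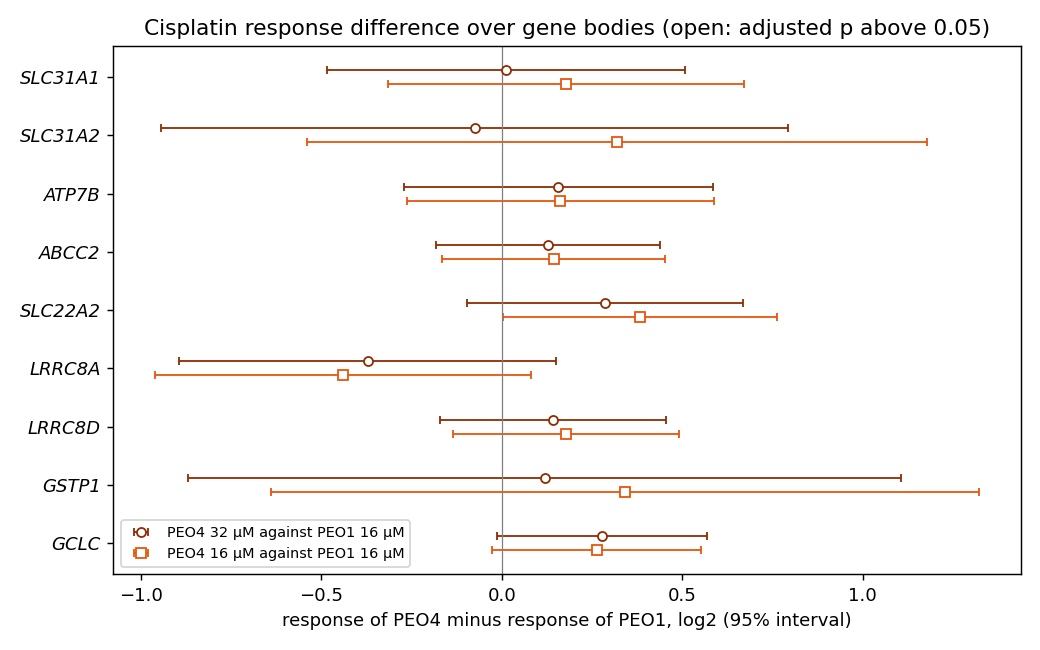
Difference between the cisplatin responses of PEO4 and PEO1 (horizontal axis, log2) over each gene body, with 95% intervals, for PEO4 given 32 µM (circles) and at 16 µM (squares), each against PEO1 given 16 µM. All 18 symbols are open, since no adjusted p-value was under 0.05, and only the interval of SLC22A2 at 16 µM leaves 0 outside.

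The central question of the design was whether adducts were distributed differently in resistant cells at matched adduct loads. The paper compared single windows, filtered by chromatin accessibility, and reported windows that differed between the lines at these doses. Here counts were summed over whole gene bodies without that filter. Single windows were not tested, so the values below do not repeat the paper's comparison. The response difference, the response of PEO4 given 32 µM minus that of PEO1 given 16 µM, was 0.29 (SE 0.19) for SLC22A2, 0.28 (SE 0.15) for GCLC, 0.16 (SE 0.22) for ATP7B, 0.14 (SE 0.16) for LRRC8D, 0.13 (SE 0.16) for ABCC2, 0.12 (SE 0.50) for GSTP1 and 0.01 (SE 0.25) for SLC31A1. It was -0.07 (SE 0.44) for SLC31A2 and -0.37 (SE 0.27) for LRRC8A. None passed the test (adjusted p between 0.609 and 0.991), and none had an unadjusted p under 0.05. Over all 19054 genes 0% were called by edgeR, with 1510 at an unadjusted p under 0.05, 1 gene by DESeq2 and 0 by limma on log2 ratios to untreated. The median was 0.13 over the 9 genes and -0.01 over all genes. The widest 95% interval ran from -0.87 to 1.11 (GSTP1), and that of GCLC from -0.01 to 0.57.

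At equal doses of 16 µM the response difference ran from -0.44 (SE 0.27) for LRRC8A to 0.38 (SE 0.19) for SLC22A2, whose unadjusted p was 0.0588 and adjusted p 0.704. Again 0% of all genes were called by edgeR, with 1319 at an unadjusted p under 0.05, 2 by DESeq2 and 2 by limma. Both comparisons use the same untreated and PEO1 libraries and are not independent. The LRRC8A value depended on the GC offset and on single libraries. With a GC offset per library the difference at 32 against 16 µM was 0.02 in place of -0.37. It was -0.21 without replicate 1 of untreated PEO1, -0.22 without PEO1 16 µM replicate 1 and -0.49 without PEO1 16 µM replicate 2, the last being the other end of the range with 1 library left out.

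Relative to the flanks, which remove a change shared by the region, the response differences at 32 against 16 µM lay between -0.20 (SLC31A2) and 0.40 (GSTP1). That of GCLC was 0.12 (SE 0.14), that of SLC22A2 0.20 (SE 0.18) and that of LRRC8A -0.08 (SE 0.20). None of the 9 was called, as was 0% of 19054 genes, with 1211 at an unadjusted p under 0.05 in edgeR.

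Promoters, taken as the windows with midpoints within 1 kb of the transcription start, were the smallest regions compared and held 2 or 3 windows each. GCLC promoter counts were 12, 1 and 7 in untreated PEO1, 0, 2 and 4 in PEO1 given 16 µM, 22, 34 and 25 in untreated PEO4, 12, 12 and 26 in PEO4 given 16 µM and 9, 17 and 48 in PEO4 given 32 µM. The PEO1 libraries were lower throughout, apart from 1 at 12 that overlapped PEO4, and treated and untreated PEO1 overlapped. The response difference at 32 against 16 µM was 2.58 (SE 1.22), with an unadjusted p of 0.0398 and an adjusted p of 0.993. LRRC8A had 1.47 (SE 0.82, adjusted p = 0.993), from counts of 5, 9 and 28, of 24, 14 and 9, of 29, 25 and 35 and of 104, 17 and 29 in untreated and treated PEO1 and untreated and 32 µM PEO4, where 1 library set the highest value. The other 7 ranged from -1.56 to 0.10, and 0% of 18008 promoters were called by edgeR, with 861 at an unadjusted p under 0.05 and 1 called by DESeq2. The 95% interval of the GCLC value ran from 0.20 to 4.97, so promoters gave far less precision than gene bodies.

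Within genes, windows touching an exon of the canonical transcript were taken as exonic and all other gene body windows as intronic. The span of that transcript holds 53 of the 133 windows of GCLC and 47 of the 118 windows of SLC22A2. The rest of their windows lie outside it and were counted as intronic. Over the 15 libraries the mean was 0.59 ± 0.10 (SD) in 28 exonic windows and 0.62 ± 0.096 in the intronic windows of ATP7B, and 0.95 ± 0.35 against 1.01 ± 0.32 for GCLC. LRRC8D was lower in its 7 exonic windows, at 0.84 ± 0.15, than in its introns, at 1.26 ± 0.086, and ABCC2 was higher in its 36 exonic windows, at 1.25 ± 0.16 against 1.05 ± 0.10. SLC22A2 had 0.705 ± 0.25 in exonic against 0.586 ± 0.063 in intronic windows, and SLC31A1 had 0.531 ± 0.16 against 0.648 ± 0.099. Windows without a read made up between 0.775% and 18.6% of LRRC8D in a library and between 0.752% and 43.6% of GCLC.

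Pooled over all 654 windows, the 9 genes had a density of 0.865 ± 0.029 (SD, n = 3) in untreated PEO1, 0.813 ± 0.016 in PEO1 given 16 µM, 0.981 ± 0.0064 in untreated PEO4, 0.972 ± 0.041 in PEO4 given 16 µM and 0.941 ± 0.012 in PEO4 given 32 µM. Both treated PEO1 and PEO4 given 32 µM lay below their untreated libraries in all 3 libraries, and all PEO4 libraries lay above all PEO1 libraries. In PEO1 the gap was narrow, with the highest treated library at 0.8302 and the lowest untreated library at 0.8315. With equal weight for each gene, given below, the means of untreated and treated PEO1 were close. How often sums over other genes separate in this way was not counted. These are descriptions of a sum to which GCLC, LRRC8D and SLC22A2 contribute most windows (133, 129 and 118). Without GCLC the pooled density was 0.936, 0.919 and 0.879 in the untreated PEO1 libraries and 0.905, 0.900 and 0.924 in those of untreated PEO4, so the lines then overlapped. The sum was not tested.

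The gene on another chromosome whose log2 density followed a member most closely over the 15 libraries was, for 8 of the 9, SPOCK1 for GCLC (Pearson r = 0.99), MAEA for LRRC8A (0.99), MPP7 for SLC22A2 (0.89), POU4F2 for ATP7B (0.88), FAF2 for ABCC2 (0.87), ROS1 for LRRC8D (0.85), KCNJ10 for SLC31A2 (0.80) and POGLUT2 for SLC31A1 (0.76). Each was the highest among tested genes on other chromosomes, so a high value is part of the choice, and all values share the same libraries, lines and depth. The 2 genes with the closest partners are the 2 that differed most between the lines.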

How the data were processed

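Per the methods and the labels, the authors aligned reads to hg19 with Bowtie2, removed duplicates with Picard, and deposited raw counts of reads in 1 kb windows stepped by 900 bp. The deposited counts were not normalised, and windows overlap. The methods mention no molecular identifiers, so duplicate removal could not tell copies of 1 molecule from separate molecules with the same read position. Of 3439652 windows, 3373681 on chromosomes 1 to 22 and X were used. Counts were summed by window midpoint over gene bodies, flanks (250 kb) and promoters (1 kb) of GENCODE release 44 on GRCh37. Features with a mean sum of at least 10 entered the edgeR quasi-likelihood test (version 4.0.16, R 4.3.3), in 1 fit of 15 libraries and 5 groups with TMM factors. P-values were adjusted by Benjamini-Hochberg over all features tested, and 0.05 was the threshold. SE is the log2 fold change divided by the square root of F, and 95% intervals use the normal quantile, which makes them slightly narrow. Gene body over flanks used the flank sum (plus 0.5) as offset. The tests were tried on simulated data. DESeq2 1.42.0 and limma 3.58.1 (prior count 2) were alternatives. The 9 genes, the pathway lists and the naming rule (all 9 genes, and in each list the called genes with the smallest p-values in the untreated comparison, up to 2 in each direction) were chosen with earlier results of these data known. The difference between lines in treated libraries, the canonical span, the combined flank and GC offset and the pooled density without GCLC were added after seeing the data. Some values are not reported here.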

Additional observations from a re-analysis of the deposited data

How the results depend on the processing

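Counts below are genes called. Gene body over flanks between untreated lines called 31 genes, 7 with flanks of 100 kb, 108 with flanks of 1000 kb, and 11 to 37 with 1 library left out. Against 0 in the main tests, PEO1 at 16 µM gave 1 over canonical transcripts, 4 with DESeq2, 1 with a minimum mean sum of 50, and 0 to 1 with 1 library left out. The response difference at 16 against 16 µM gave 2 with DESeq2 and 2 with limma, that at 32 against 16 µM gave 1 with DESeq2 and 1 with a GC offset, and that at promoters gave 1 with DESeq2 and 0 to 1 with 1 library left out. The cause was not tested. Same-numbered libraries did not deviate together (mean r = -0.03, against 0.02 for different numbers). With the replicate block, 3567 in place of 3902 genes were called between untreated lines, 5667 in place of 6835 flanks and 24 in place of 31 genes over flanks, and 0 in all other comparisons. Among the 9 genes the block ended 1 call, SLC22A2 (log2 difference -0.42, adjusted p = 0.0527).

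The pooled density was 0.926, 0.922, 1.06, 1.11 and 1.02 with equal weight for each gene, 0.761, 0.700, 0.930, 0.906 and 0.879 without LRRC8D, and 0.912, 0.868, 0.910, 0.903 and 0.865 without GCLC (added after seeing the data), for untreated PEO1, PEO1 at 16 µM, untreated PEO4, and PEO4 at 16 and 32 µM.

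Values that changed sign were small and none was called. Between untreated lines, scaling by total count gave 0.025 at ABCC2 flanks and 0.041 at GSTP1. Gene body over flanks gave -0.0093 at ATP7B with 100 kb flanks, 0.042 at LRRC8D with 1000 kb flanks, and -0.0015 at LRRC8A and 0.038 at LRRC8D with flank and GC offsets together. The treated libraries of the lines gave 0.045 (16 µM) and 0.040 (32 µM) at ATP7B, 0.0025 (32 µM) at ATP7B flanks, 0.31 and 0.085 at GSTP1, -0.076 and -0.070 at GSTP1 flanks, 0.079 (16 µM) at SLC31A1 and 0.047 (16 µM) at SLC31A2. The response difference at 32 against 16 µM became 0.024 at LRRC8A, -0.0055 at SLC31A1 and 0.14 at SLC31A2 with a GC offset, and -0.10 at SLC31A1 with total counts. With 1 library left out, gene body over flanks ranged from -0.21 to 0.0018 at ABCC2, -0.10 to 0.078 at ATP7B, -0.034 to 0.097 at GCLC, -0.059 to 0.078 at LRRC8D, -0.019 to 0.20 at SLC31A1 and -0.23 to 0.077 at SLC31A2. The untreated difference at GSTP1 ranged from -0.31 to 0.16, and the response difference from -0.075 to 0.40 at GSTP1, -0.0038 to 0.22 at LRRC8D, -0.074 to 0.13 at SLC31A1 and -0.38 to 0.17 at SLC31A2. LRRC8A and GCLC stayed called between untreated lines, over gene body and flanks, under every alternative run. Promoters (2 or 3 windows) and GSTP1 (3 windows) rested on few reads.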
